A study of Mus musculus with 2 samples.

Results

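The genes described here encode the subunits of the receptors for glutamate and GABA. They were chosen by gene symbol alone, and the rule took 42 of the 31053 genes in the files. Of these, 26 belong to glutamate receptors: 4 AMPA subunits (Gria), 5 kainate subunits (Grik), 7 NMDA subunits (Grin), 2 delta subunits (Grid) and 8 metabotropic receptors (Grm). The other 16 belong to GABA receptors: 14 alpha, beta, gamma, delta and epsilon subunits of the GABA-A receptor (Gabra, Gabrb, Gabrg, Gabrd, Gabre) and both subunits of the GABA-B receptor (Gabbr1, Gabbr2).

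Glutamate and GABA are the main excitatory and inhibitory transmitters of the cortex. AMPA, kainate and NMDA receptors are glutamate-gated cation channels and GABA-A receptors are GABA-gated chloride channels, so their subunit mix sets the speed, calcium permeability and drug sensitivity of fast transmission. Metabotropic glutamate receptors and the GABA-B receptor act through G proteins, and several of these receptors also sit on glia.

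RNA was measured in single nuclei of entorhinal cortex from male APP/PS1 mice. This double-transgenic line carries mutant human-sequence APP, with its transgenes under the mouse prion promoter. The OLE group drank C18:1-Leu (N-oleoyl-leucine) at 25 mg/kg/day in alkaline water between the ages of 15 and 18 months, and the vehicle group drank alkaline water with DMSO over the same 3 months. Tissue of 5 mice was pooled into 1 library per group, so there are no replicates, differences between mice cannot be seen, and no test between the groups was possible. Both groups carry the transgenes, and no mice without them were sequenced. The vehicle library held 6745 nuclei and 70845739 UMIs (unique molecules), with a median of 3989 per nucleus. The OLE library held 6173 nuclei and 69485537 UMIs, with a median of 6392. After removal of likely doublets, 6414 vehicle and 5884 OLE nuclei were kept. The libraries shared 14 cell barcodes, and the numbers of members called higher or lower in neurons were the same without them.

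Nuclei were named from marker genes, and the suffix "-like" marks a name that rests on RNA alone. Glutamatergic-like nuclei numbered 1836 in vehicle and 1813 in OLE, in 11 clusters, with medians of 20891.5 and 19252 UMIs. All 14 of their markers were detected, at a summed 2372 and 2505 UMIs per 1000000 in vehicle and OLE, the most abundant being Camk2a at 661 and 727. GABAergic-like nuclei numbered 325 and 354, with 13 of 13 markers at a summed 21059 and 19850.2 per 1000000, led by Erbb4 at 10882 and 9611. Oligodendrocyte-like nuclei numbered 602 and 530, with 12 of 12 markers at 19316 and 21952 per 1000000, among them Mbp. The precursor (OPC-like) nuclei numbered 101 and 84, with 9 of 9 markers at 10560 and 10968, led by Lhfpl3. Microglia-like nuclei numbered 340 and 271, with 12 of 12 markers at 10882 and 12456, among them Csf1r. Astrocyte-like nuclei numbered 121 and 136, with 10 of 10 markers at 29224 and 31206, led by Gpc5. A further 3078 vehicle and 2680 OLE nuclei in 6 clusters could not be named, and 11 and 16 mural-like nuclei were too few to use.

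Levels are UMIs summed over the nuclei of a type and library, per 1000000 UMIs of that sum. Nuclear RNA is read along introns, so long genes collect more UMIs. Levels of different genes are therefore compared per kb of gene span unless stated otherwise. Intervals are exact 95% intervals (Poisson for levels, Clopper-Pearson for ratios and shares) and cover counting error only. The members are long genes: their median span was 216 kb, and the shortest, Grin3b, spans 6.48 kb, beside a median of 12.7 kb over 30934 genes.

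Receptor subunits took 2.33% (interval 2.33 to 2.33) of all UMIs in vehicle glutamatergic-like nuclei and 2.31% (2.31 to 2.32) in OLE. In GABAergic-like nuclei the shares were 2.64% (2.63 to 2.65) and 2.57% (2.56 to 2.59). Glial nuclei gave less to these genes, down to 0.752% (0.734 to 0.770) and 0.689% (0.670 to 0.708) in microglia-like nuclei. With at least 100 UMIs over both libraries as the minimum, glutamatergic-like nuclei had 37 measured members, GABAergic-like 36, oligodendrocyte-like 30, OPC-like 26, microglia-like 26 and astrocyte-like 24. The members below that minimum in both neuronal classes were Gabra6, Gabre, Grin2c, Grin3b and Grm6, and in GABAergic-like nuclei also Grm2. Grm6, the receptor of retinal ON bipolar cells, gave 1 UMI in all glutamatergic-like nuclei and 1 in all astrocyte-like nuclei.

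Per kb of gene span, subunits of NMDA and AMPA receptors stood highest in neurons. The order depends on that division, and Grin1 spans only 28.0 kb. Undivided, metabotropic glutamate receptors summed to 6720 per 1000000 in vehicle glutamatergic-like nuclei, AMPA subunits to 4653 and NMDA subunits to 3592. In vehicle GABAergic-like nuclei the undivided AMPA sum was the highest of the families, at 6096, and the NMDA sum was 3269. Per kb, the first in glutamatergic-like nuclei was Grin1, the subunit that every NMDA receptor needs, at 17.1 UMIs per 1000000 and kb over both libraries. Gria2, the AMPA subunit that keeps calcium out, came next at 13.7. Gabbr1, the GABA-binding subunit of the GABA-B receptor, stood at 5.04, and Grm5, a group I receptor coupled to calcium release, at 4.02. GABAergic-like nuclei shared the first places, with Grin1 at 12.6 and Gria2 at 9.54. There Gria1 followed at 6.99 and Gria4 at 5.16, both subunits that leave AMPA receptors permeable to calcium when Gria2 is missing. Gabbr1 was the fifth in that order at 5.01.

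Summed by family, the per-kb levels in glutamatergic-like nuclei were 24.5 and 24.7 for NMDA subunits in vehicle and OLE, 23.5 and 24.3 for GABA-A subunits and 22.9 and 23.3 for AMPA subunits. These 3 families stood within a narrow band, and the other families stood lower. Metabotropic glutamate receptors came to 12.3 and 11.9, GABA-B subunits to 5.81 and 7.10 and kainate subunits to 5.00 and 5.03. GABAergic-like nuclei had a higher per-kb sum of kainate subunits, 11.0 and 10.4, and a lower sum of metabotropic glutamate receptors, 7.85 and 7.53.

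The mix of AMPA, kainate, GluN2 and gamma subunits differed between the neuronal classes. Of the per-kb level of AMPA subunits, Gria2 held 58.9% in vehicle and 60.2% in OLE of glutamatergic-like nuclei, against 38.3% and 38.1% in GABAergic-like nuclei. Grik5, a high-affinity kainate subunit, held 37.9% and 39.1% of the kainate level in glutamatergic-like nuclei, where Grik1 held 3.98% and 4.47%. Grik1, a kainate subunit known in interneurons, held 37.9% and 38.3% in GABAergic-like nuclei. Among the GluN2 subunits, which set how long an NMDA current lasts, Grin2a held 51.1% and 51.1% in glutamatergic-like nuclei and Grin2b 46.1% and 45.5%. Grin2d, the slow subunit typical of interneurons, held 2.24% and 2.83% there and 16.1% and 18.9% in GABAergic-like nuclei. Gabrg3 held the largest gamma share in GABAergic-like nuclei, 52.0% and 48.4%. The level of Gabrg3 over both libraries was 1871 per 1000000 in GABAergic-like nuclei, 4.02 times that in the next type, OPC-like nuclei.

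**Figure D1:**
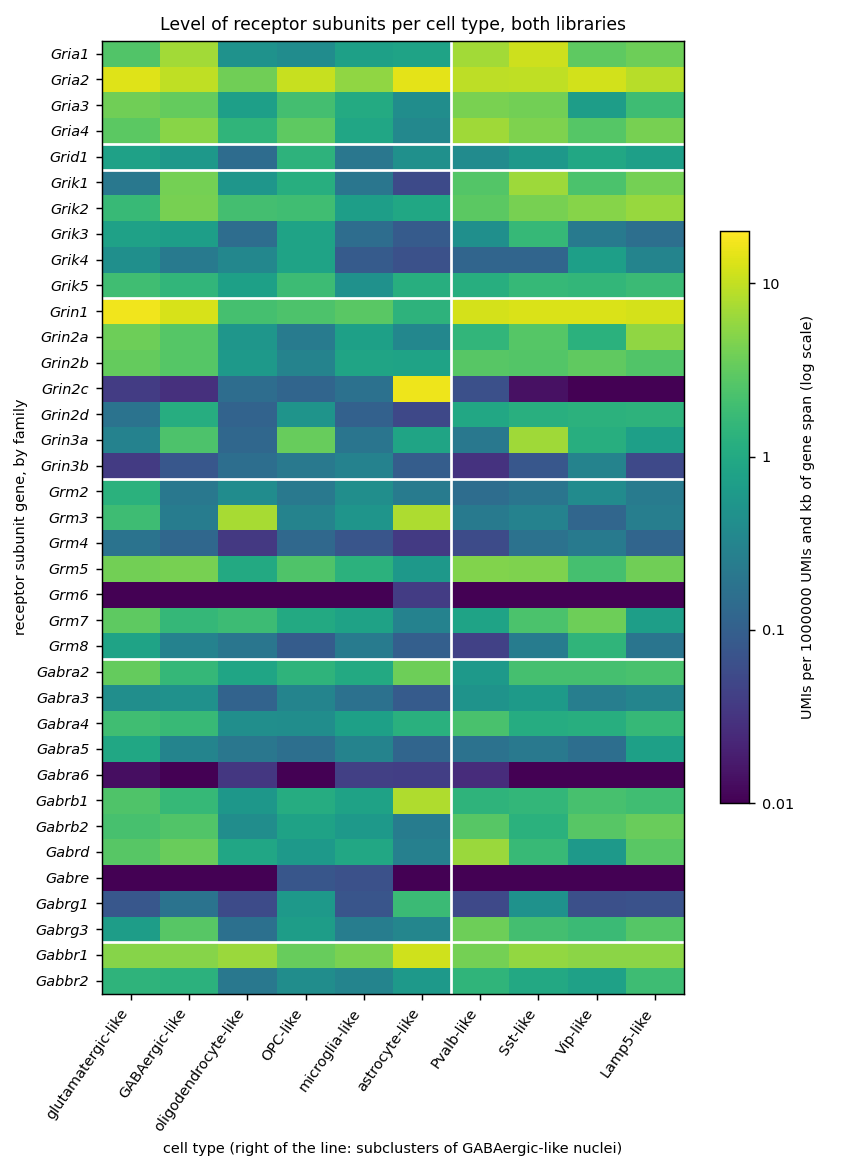
Level of receptor subunit genes (rows, by family) in each cell type and GABAergic-like subcluster (columns), as UMIs per 1000000 UMIs and kb of gene span over both libraries, on a log color scale. Grin1 and Gria2 lead in both neuronal classes, and Grin2c reaches 16.4 in astrocyte-like nuclei.

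The comparison of OLE with vehicle asks how the treatment relates to receptor RNA in each cell type. In glutamatergic-like nuclei most subunit levels were close between the libraries, and the ones furthest apart were higher in OLE. Of 37 measured members, 3 were called higher, meaning a log2 ratio of OLE to vehicle of at least 0.25, beside 21.1% of all 14030 measured genes. None of the members was called lower, beside 3.11% of genes. The members' median log2 ratio was 0.01, and that of all genes was 0.07. Of the measured members, 29 had an interval without 0, beside 39.1% of genes, so counting error is small here and differences between pools of mice are not part of it.

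Scaling the libraries by the median of ratios in place of total UMIs sets the median of all genes to 0 and lowers each ratio in glutamatergic-like nuclei by 0.07. It also moves the calls over all genes, from 21.1% higher and 3.11% lower to 14.9% and 5.47%. The same 3 members remained higher, but 19 members lay above 0 with total UMIs and 10 with the median of ratios. A log2 ratio from 0 to 0.07 in glutamatergic-like nuclei therefore has no settled direction.

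Gabbr1, whose protein binds GABA in the GABA-B receptor, was the only member called higher in both neuronal classes besides Gabrg1. Its level in glutamatergic-like nuclei was 129 in vehicle and 166 in OLE, from 5485 and 6551 UMIs, a log2 ratio of 0.37 (0.31 to 0.42). OLE was higher in 10 of the 10 clusters with at least 50 nuclei per library, by 0.26 to 0.56. With every nucleus thinned to 1000 UMIs the ratio was 0.20, under the 0.25 limit. In glia its values lay on both sides of 0, with 0.247 in oligodendrocyte-like, -0.05 in astrocyte-like, -0.21 in OPC-like and -0.26 in microglia-like nuclei, the last called lower. Counting intervals of these glial values are not given here, so a direction opposite to that in neurons is not claimed. Scaling by the median of ratios brought the microglia-like value to -0.24, inside the limit. Thinning turned that value to 0.03 and the astrocyte-like value to 0.07. The OPC-like (-0.73) and oligodendrocyte-like (0.22) values kept their sign when thinned. Gabbr2, the partner that couples the receptor to G proteins, was at 459 in vehicle and 463 in OLE, a ratio of 0.01. The subunits of this obligate pair thus had different ratios, and the summed GABA-B level per kb followed Gabbr1.

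The GABA-A family had ratios from -0.14 to 0.57, with 7 of 12 measured subunits above 0 and 4 of 12 above the median of all genes. Gabrg1, a gamma subunit more usual in glia and in a few neuron types, was at 5.94 in vehicle and 8.81 in OLE, from 253 and 348 UMIs. Its log2 ratio was 0.57 (0.33 to 0.81), the largest of the members, at a level per kb that made up 1.95% and 2.82% of the gamma subunits. The share of Gabra4, a subunit of extrasynaptic receptors, in the alpha level was 19.5% in vehicle and 17.4% in OLE. Gabrb2, a beta subunit, was at 485 in vehicle and 439.9 in OLE, a ratio of -0.14 (-0.17 to -0.11), the lowest of the family. It was below 0 in 9 of 10 clusters. Gabra5, an extrasynaptic alpha subunit, was at 90.4 and 97.7 (0.11) and above 0 in 9 of 10 clusters. Gabra4 had a ratio of -0.07. Gabrd, the delta subunit of tonic inhibition, had 0.12, and was at -0.12 in thinned nuclei.

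Among NMDA subunits, 4 of 5 measured had ratios above 0 and 2 of 5 above the median of all genes. Grin2d was at 7.37 in vehicle and 9.69 in OLE, from 314 and 383 UMIs, a ratio of 0.40 (0.18 to 0.62). Grin3a, which lowers calcium entry through NMDA receptors, was at 49.5 in vehicle and 57.9 in OLE, a ratio of 0.23 (0.14 to 0.31), with 0.16 to 0.42 over the alternatives. The main subunits of cortical NMDA receptors were close between libraries. Grin1 was at 479 and 476 (-0.01), Grin2a at 1550.3 and 1610.3 (0.05) and Grin2b at 1504 and 1545 (0.04).

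AMPA subunits split evenly around 0, with 2 of 4 above it and 1 of 4 above the median of all genes. Gria1, the subunit added to synapses during potentiation, was at 768 in vehicle and 869 in OLE, a ratio of 0.18 (0.16 to 0.20). Gria4 was at 1162 in vehicle and 1076 in OLE, a ratio of -0.11. The share of Gria2 in the AMPA level, 58.9% and 60.2%, was close between the libraries. Kainate subunits had ratios from -0.06 for Grik4 to 0.17 for Grik1, which was at 78.5 and 88.5. Grid1, a delta subunit, which organizes synapses together with cerebellin proteins, was at 599 and 576 (-0.05) and below 0 in 10 of 10 clusters.

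Metabotropic glutamate receptors were the family most often below 0, with 6 of 7 measured members there under each of 3 scalings tried (total UMIs, median of ratios and the mean over nuclei). Grm3, a group II receptor that lowers cyclic AMP, was at 467 in vehicle and 424 in OLE, a ratio of -0.14 (-0.17 to -0.11). Grm7, the presynaptic group III receptor, was at 2877 and 2719 (-0.08) and was below 0 in 10 of 10 clusters. The exception was Grm2, the other group II receptor, at 15.9 and 17.8 (0.16). The share of Grm3 in the per-kb group II level was 61.4% in vehicle and 56.3% in OLE.

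**Figure D2:**
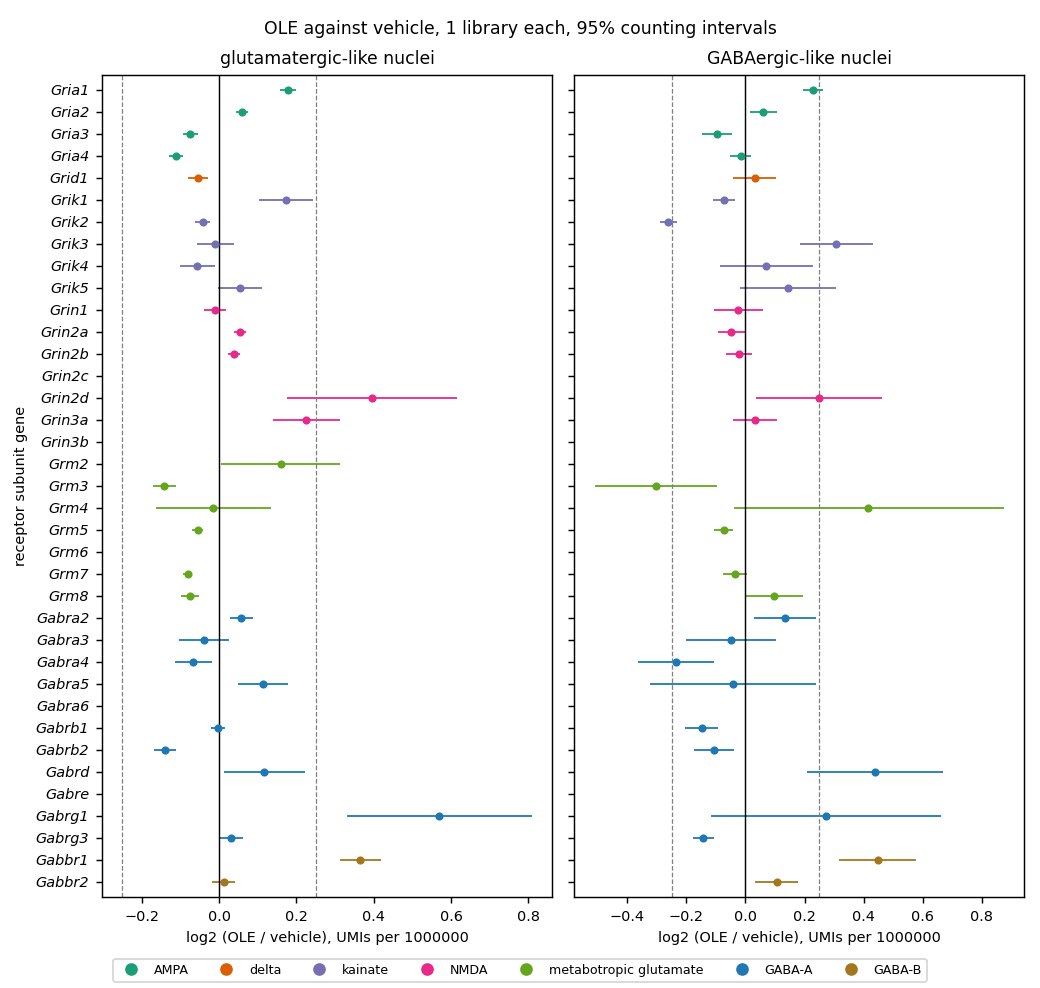
Log2 ratio of OLE to vehicle (horizontal axis) for receptor subunit genes with at least 100 UMIs, in glutamatergic-like and GABAergic-like nuclei, 1 library per group. Points are colored by family, bars are 95% counting intervals, dashed lines mark 0.25 in each direction, and Gabbr1 lies past 0.25 in both classes.

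Some members differed far more between glutamatergic-like clusters than between the libraries. Gabrg1 reached 46.3 per 1000000 in a single cluster of 126 vehicle and 100 OLE nuclei, 13.6 times the median cluster, and was at 35.2 and 60.5 in vehicle and OLE there. Grik1 reached 318 and 304 in a cluster of 171 and 174 nuclei, 13.3 times the median cluster over both libraries. Grik3 was highest in a cluster of 236 and 220 nuclei, at 579.7 and 619, and Grin3a in a cluster of 127 and 88 nuclei, at 158 and 141. These kainate and NMDA subunits thus marked separate groups of glutamatergic-like nuclei, although no member was used to form the clusters.

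The largest cluster held 21.0% of vehicle and 25.6% of OLE glutamatergic-like nuclei, 385 and 464. In it Grik1 was at 23.1 and 77.7 (log2 ratio 1.75), Grin3a at 19.1 and 54.6 (1.52) and Grik3 at 25.0 and 55.4 (1.15). This cluster was singled out after its values were seen, and others went the other way: Grik1 was below 0 in 4 of 7 clusters with at least 50 nuclei per library and 100 UMIs (down to -1.56), Grin3a in 3 of 7 (down to -0.55) and Grik3 in 5 of 10 (down to -0.68). The largest cluster included 38 OLE and 0 vehicle nuclei with dentate granule cell genes, a cell type of the hippocampus. All 6 genes of that list were detected in those nuclei, with Glis3 at 1144, Prox1 at 270.4 and Lct lowest at 10.7 per 1000000. Without them, and without nuclei holding GABAergic genes, 380 and 409 nuclei remained, and the log2 ratios were 1.84 for Grik1, 1.34 for Grin3a and 0.84 for Grik3.

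GABAergic marker RNA was also higher in OLE glutamatergic-like nuclei. All 13 GABAergic markers were detected there, at a summed 177 and 279.6 per 1000000 in vehicle and OLE, with Erbb4 at 70.7 and 94.8 as the most abundant. At least 3 UMIs of Gad1, Gad2 and Slc32a1 together were found in 8 of 1836 vehicle nuclei (0.436%, 0.188 to 0.857) and 28 of 1813 OLE nuclei (1.54%, 1.03 to 2.22), with medians of 20891.5 and 19252 UMIs per nucleus. In GABAergic-like nuclei 95.4% and 98.0% reached that count. Several members that were higher in OLE are richer in GABAergic-like nuclei: Grik1 by 19.3 times, Grin3a by 8.16 times, Grin2d by 6.29 times and Gabrg1 by 2.28 times. Without the nuclei of 3 or more such UMIs, the ratio of Grik1 was 0.08, that of Grin3a 0.19, that of Gabrg1 0.49 and that of Grin2d 0.40. The part of the remaining GABAergic RNA, 174 in vehicle and 225 in OLE, was not tested.

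GABAergic-like nuclei had more subunits past the limit. Of 36 measured members, 6 were called higher, beside 25.4% of 9681 genes, and 2 lower, beside 4.41%. Among the higher ones were Gabbr1, Gabrd, Grm4, Grik3 and Gabrg1, and the lower ones were Grm3 and Grik2. The median was -0.02 for members and 0.08 for all genes. Scaling by the median of ratios lowered each ratio by 0.08, leaving 4 members higher and 3 lower, beside 17.5% and 9.55% of genes. Grik3 and Gabrg1 then lay inside the limit, and Gabra4 lay past it.

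Of 12 measured GABA-A subunits, 5 were above 0, with a median of -0.05. Gabbr1 had the highest ratio of the members, at 124 in vehicle and 169 in OLE, a log2 ratio of 0.45 (0.32 to 0.58), and Gabbr2 at 423 and 455 (0.11). Gabra4 was at 158 in vehicle and 135 in OLE, a ratio of -0.23 (-0.36 to -0.11), and its share of the alpha level was 21.5% and 15.8%. Gabrd was at 40.1 in vehicle and 54.3 in OLE, from 282 and 355 UMIs, a ratio of 0.44 (0.21 to 0.67), but 0.05 in nuclei thinned to 1000 UMIs. Gabrg1 was at 15.2 and 18.3, a ratio of 0.27 whose interval reached from -0.12 to 0.66, and it turned to -0.71 in thinned nuclei. The beta subunits Gabrb1 and Gabrb2 were below 0, at -0.15 and -0.11. Gabrg3 was at 1960.1 and 1775 (-0.14).

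Among excitatory receptors, the kainate subunits moved apart. Grik2, the subunit of most cortical kainate receptors, was at 3189.6 in vehicle and 2661 in OLE, a ratio of -0.26 (-0.29 to -0.23), with -0.34 to -0.19 over the alternatives. Grik3 was at 141 in vehicle and 175 in OLE, a ratio of 0.31 (0.18 to 0.43), and 0.01 in thinned nuclei. The share of Grik2 in the kainate level was 41.6% in vehicle and 36.9% in OLE. Gria1 was at 2058 in vehicle and 2412 in OLE, a ratio of 0.23 (0.20 to 0.26), and its share of the AMPA level was 26.5% and 29.5%. Grin2d lay just inside the limit, at 49.0 and 58.3 (0.249). Grm3 was at 63.9 in vehicle and 51.8 in OLE, a ratio of -0.30 (-0.51 to -0.10), but 0.030 when nuclei were averaged instead of summed. Grm4, a presynaptic group III receptor named because its value passed the limit, was at 10.7 and 14.2 from 75 and 93 UMIs, a ratio of 0.42 (-0.04 to 0.87). The NMDA subunits Grin1, Grin2a and Grin2b lay between -0.05 and -0.02, of which Grin2a was at 0.03 as a mean over nuclei and Grin2b at 0.04 in thinned nuclei.

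Glutamatergic markers in GABAergic-like nuclei were close between the libraries: 14 of 14 were detected, at a summed 589.98 and 606 per 1000000, with Camk2a at 284 and 311 as the most abundant.

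The GABAergic-like nuclei fell into Pvalb-like (116 vehicle and 123 OLE nuclei), Sst-like (97 and 106), Lamp5-like (64 and 66) and Vip-like (48 and 59) subclusters, the main classes of cortical interneurons. Some receptor subunits differed strongly between them and others hardly. In their highest subcluster Grin1, Gabra2 and Gabbr1 stood at only 1.03, 1.05 and 1.12 times the median subcluster. In Sst-like nuclei Grin3a stood at 1263 per 1000000 over both libraries, 7.25 times the median subcluster. Grik3 stood there at 363, 4.89 times, and Gabrg1 at 44.0, 7.35 times. Grm8, a group III receptor, stood at 1247 in Vip-like nuclei, 6.68 times the median. Gabrd was highest in Pvalb-like nuclei and Gabra5 in Lamp5-like nuclei, at 83.3 and 76.9.

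Gabbr1 was above 0 in all 4 subclusters, with log2 ratios of 0.33 in Lamp5-like, 0.44 in Pvalb-like, 0.48 in Sst-like and 0.56 in Vip-like nuclei. Grik2 was below 0 in all 4, from -0.34 in Lamp5-like nuclei to -0.12 in Vip-like nuclei. Other members differed in direction between subclusters, and these differences were not tested. Gabrd was at 71.1 and 96.6 in Pvalb-like vehicle and OLE nuclei (0.44), 21.7 and 57.6 in Lamp5-like nuclei (1.41) and 25.3 and 18.4 in Sst-like nuclei (-0.46). Grm3 was lower in Lamp5-like nuclei, at 88.8 and 28.4 from 143 and 37 UMIs (-1.64), and in Sst-like nuclei (-0.22), while Pvalb-like and Vip-like nuclei were at 0.27 and 0.22. Grik3 was at 49.7 and 20.0 in Lamp5-like nuclei (-1.31) and 321 and 407 in Sst-like nuclei (0.34), where most of its RNA was found. Gabrg3 was at 1707 and 1022 in Sst-like nuclei (-0.74) and 1619 and 2026 in Lamp5-like nuclei (0.32). Single subclusters also differed between libraries for Grin3a in Pvalb-like nuclei, 23.9 and 53.6 (1.16), for Gria3 in Vip-like nuclei, 258 and 134 (-0.94), and for Grm7 in Lamp5-like nuclei, 802 and 472 (-0.77). Gabrd, Grm3, Grik3, Gabrg3, Grin3a, Gria3 and Grm7 were picked here after their subcluster values were seen.

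Glial nuclei held neuronal RNA, so each member's level there was set beside 14 neuronal reference genes as a percentage of the level in glutamatergic-like nuclei. In oligodendrocyte-like nuclei the highest reference gene was Nefl, at 116% and 83.0% in vehicle and OLE, and the median reference gene was at 33.1% and 33.2%. A member whose lower limit lay above the highest reference gene in both libraries was counted as above the references. Astrocyte-like nuclei had 9 such members, OPC-like 7, oligodendrocyte-like 5 and microglia-like 0. Members rich in GABAergic-like nuclei can pass this comparison from GABAergic RNA alone. With the higher of the 2 neuronal levels of each gene in place of the glutamatergic-like level, the numbers were 8, 5, 3 and 0. Grin3a in astrocyte-like, Grik1 and Grin2d in OPC-like and Grik1 and Grik2 in oligodendrocyte-like nuclei then fell out, so their source is open.

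In astrocyte-like nuclei Grin2c, an NMDA subunit with weak magnesium block, was at 283 and 309 per 1000000 in vehicle and OLE, and its level over both libraries was 95.5 times that in the next type. It made up 92.6% and 93.5% of the GluN2 level per kb, and with 16.4 per kb it was the first of all members in these nuclei. Gria2 followed at 14.5 per kb, Gabbr1 at 11.5, Gabrb1 at 7.98 and Grm3 at 7.89. Gabrb1 was at 4007 and 3839 and made up 92.4% and 93.8% of the beta level, and Gabrg1 made up 69.5% and 72.0% of the gamma level. Gabra2 held the largest alpha share, 60.9% and 58.6%. The largest beta and gamma shares thus fell to Gabrb1 and Gabrg1, where in GABAergic-like nuclei they fell to Gabrb2 and Gabrg3. Gabrg1 reached 2685% and 1884% of the glutamatergic-like level. The highest reference gene in astrocyte-like nuclei was Map2, at 90.0% and 93.1%.

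OPC-like nuclei were marked by Grin3a at 643 and 634 per 1000000, 1299% and 1096% of the glutamatergic-like level. Other members above the references there under both comparisons were Gabrg1, Grid1 and Grik4. Per kb the order was Gria2 at 10.5, Grin3a at 3.47, Gabbr1 at 3.44 and Gria4 at 2.99. The highest reference gene was Map2, at 122% and 117%. Precursor cells are known to receive glutamatergic synapses.

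In oligodendrocyte-like nuclei Grm3 was above the references under both comparisons, at 1796 and 1767 per 1000000 and 384% and 417% of the glutamatergic-like level. It was not particular to this type: over both libraries it was at 1783 here and 1892 in astrocyte-like nuclei. Gabbr1 was also above the references under both comparisons. Per kb the order was Grm3 at 7.44, Gabbr1 at 6.40, Gria2 at 3.88, Grin1 at 2.16 and Grik2 at 2.09. In microglia-like nuclei Gria2 led at 5.65 per kb, then Gabbr1 at 4.35 and Grin1 at 2.84, and Grm5 stood at 1.31. All of these were within the range of the neuronal reference genes, so they cannot be told from neuronal background RNA. From all nuclei to those with fewer reference UMIs than the median, Grm3 went from 1783 to 1765 among oligodendrocyte-like nuclei, over both libraries, and Grin3a from 639 to 601 among the precursors. Astrocyte-like nuclei went from 297 to 312 for Grin2c and from 3918 to 3748 for Gabrb1. The largest falls among members above the references were those of Grin3a in astrocyte-like nuclei, from 157 to 114, and of Grik1 among the precursors, from 463 to 357.

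The members' median log2 ratio was below 0, and below that of all genes, in each of the 4 glial types, and values by gene length are given below. In oligodendrocyte-like nuclei 14 of 30 measured members were called lower, beside 12.3% of 5901 genes, and 2 higher, beside 17.7%. The median was -0.19 for members and 0.02 for all genes. Gabrg3 was at 128 in vehicle and 87.7 in OLE, a log2 ratio of -0.54 (-0.84 to -0.26), and Grin2a at 263 in vehicle and 196 in OLE, a ratio of -0.43 (-0.63 to -0.24). Both lay among the neuronal reference genes in these nuclei, whereas Grm3, the most abundant member of the type itself, had a ratio of -0.02. The members called higher were Grik5, at 40.4 and 55.1 (0.45), and Gabra3, at 22.0 and 29.8 (0.44), both named because they were the only ones. Gabbr1 was at 172 and 204 (0.247, just inside the limit). Gabbr2 was at 65.1 and 72.5 (0.16), with values from -0.19 to 0.32 under other settings. All 14 glutamatergic markers were detected in oligodendrocyte-like nuclei, at a summed 612 and 588 per 1000000 in vehicle and OLE, with Sv2b at 109 and 101 as the most abundant. Of the neuronal reference genes, 3 of 12 were higher and 2 lower, with a median of -0.07. The part of neuronal RNA in the lower members was not tested.

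In OPC-like nuclei 1 of 26 members was called higher, beside 15.6% of 2584 genes, and 2 lower, beside 16.5%. The higher one was Grm3, at 52.0 and 97.0 from 40 and 62 UMIs (0.90, 0.30 to 1.51), and the lower ones were Gabbr2 (-0.39) and Grm8 (-0.56), 3 genes named after their values were seen. Of the members with at least 200 UMIs, Gria2 (1205 and 1346, 0.16) and Grik3 (174 and 194, 0.16, and 0.06 to 0.48 over the settings) had the highest ratios. Gabrg3 (496 and 427, -0.22) and Grik1 (492 and 429, -0.20, and -0.36 to -0.04 over the settings) had the lowest, and Gabrg3 was at 0.11 under another setting. Of the neuronal reference genes, 0 of 7 were higher and 2 lower, and their median was -0.08.

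In microglia-like nuclei 1 of 26 members was called higher, beside 14.8% of 3701 genes, and 6 lower, beside 15.7%. The lowest were Gabrb2, at 143 and 102 (-0.49, -0.92 to -0.06), and Gabrg3, at 194 and 142 (-0.45, -0.82 to -0.09). Over the settings they ranged over -0.81 to -0.27 and -0.77 to -0.01, so the lower call of Gabrg3 was lost under some. The highest with at least 200 UMIs were Gria1, at 228 and 260.05 (0.19, and -0.06 to 0.49 under other settings), and Gabra2, at 130.3 and 147 (0.18, and 0.02 to 0.36). The member called higher was Gabra4, at 60.0 and 72.9 (0.28), named after its value was seen. The 14 glutamatergic markers summed to 1217 and 1121 per 1000000 in these nuclei, led by Ptk2b at 355 and 293, whereas 5 of 10 neuronal reference genes were higher and 1 lower, with a median of 0.18. The part of neuronal RNA in the members' ratios was not tested.

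In astrocyte-like nuclei 2 of 24 members were called higher, beside 15.4% of 3012 genes, and 7 lower, beside 17.6%. Grin3a was at 195 in vehicle and 122 in OLE, a ratio of -0.67 (-1.05 to -0.31), with -0.88 to -0.59 over the settings. The highest with at least 200 UMIs were Gria4, at 123 and 137 (0.15, and 0.15 to 0.57 over the settings), and Grin2c, at 0.13 and down to -0.17 under other settings. The members called higher were Gabra4 (97.7 and 119, 0.28) and Grik5 (65.6 and 80.1, 0.29), named after their values were seen. As a mean over nuclei they were at 0.21 and 0.24, inside the limit, and in thinned nuclei at -0.17 and -0.34. The glutamatergic markers summed to 2103 and 2018 there, most of it Rorb. Of the neuronal reference genes, 3 of 8 were lower and 0 higher, with a median of -0.14, the same direction as the lower members, and the part of neuronal RNA in these was not tested.

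The largest unnamed cluster, of 2456 vehicle and 2000 OLE nuclei, mixed markers of several types. Those of oligodendrocytes (11 of 12) and astrocytes (7 of 10) were raised over the lower quartile of clusters, but they summed to 1796 and 1648 per 1000000 in vehicle and OLE for oligodendrocytes and to 1613 and 1717 for astrocytes, far below those types. Glutamatergic markers, 14 of 14, summed to 2036 and 2009.7, near the glutamatergic-like level, GABAergic markers, 13 of 13, summed to 2641 and 2767, above the glutamatergic-like level, and Slc17a7 was at 287 and 271. Its median depth was 2364 UMIs in vehicle and 4764 in OLE. Members took 2.02% and 2.01% of its UMIs, and 38 were measured. Of these, 2 were called higher, beside 13.3% of 11478 genes, and 1 lower, beside 6.66%. Gabrg1 was at 14.2 and 18.5 (0.39), Grin2d at 13.9 and 16.7 (0.27) and Grm4 at 18.6 and 15.1 (-0.30). Gabbr1 had a ratio of 0.07 (-0.02 to 0.15) in these nuclei. The 3 called members were named after their values were seen, and the part of the unequal depth and of the GABAergic RNA in the ratios was not tested.

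Gene length moved with the log2 ratio over all genes. In glutamatergic-like nuclei the median ratio was 0.21 for genes under 10 kb, 0.10 from 10 to 30 kb, 0.03 from 30 to 100 kb, 0.00 from 100 to 300 kb and -0.03 above 300 kb. In GABAergic-like nuclei the same classes stood at 0.30, 0.16, 0.05, -0.01 and -0.06. In glutamatergic-like nuclei the medians of the measured members were 0.14 for the 4 members from 10 to 30 kb, 0.05 for 7 from 30 to 100 kb, -0.01 for 9 from 100 to 300 kb and -0.03 for 17 above 300 kb. In GABAergic-like nuclei they were 0.44 for 3, 0.25 for 7, -0.04 for 9 and -0.03 for 17, so the members' medians under 100 kb lay above those of their classes there. In oligodendrocyte-like nuclei genes above 300 kb had a median of -0.17, and 33.3% of them were called lower. Of the 17 members above 300 kb, 9 were called lower there, with a median of -0.25. In OPC-like, microglia-like and astrocyte-like nuclei members above 300 kb had medians of -0.10, -0.12 and -0.11, beside -0.05, -0.12 and -0.12 for all genes of that length, of which 16.6%, 24.3% and 30.03% were called lower. Shorter members past the limit, such as Gabbr1 at 29.1 kb and Gabrd at 13.1 kb, belong to classes whose genes were higher as a whole.

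With the median of its length class subtracted, Gabbr1 had ratios of 0.27 and 0.29 in the glutamatergic-like and GABAergic-like classes. Of all genes, 12.6% were then higher and 6.36% lower in glutamatergic-like nuclei, and 13.7% and 10.4% in GABAergic-like nuclei. In glutamatergic-like nuclei the same 3 members, Gabbr1, Gabrg1 and Grin2d, remained higher. In GABAergic-like nuclei Gabbr1, Gabrd, Grik3 and Grm4 remained higher, Gria1 passed the limit and Gabrg1 did not, while Gabra4 and Grm3 were lower and Grik2 was not.

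**Figure D3:**
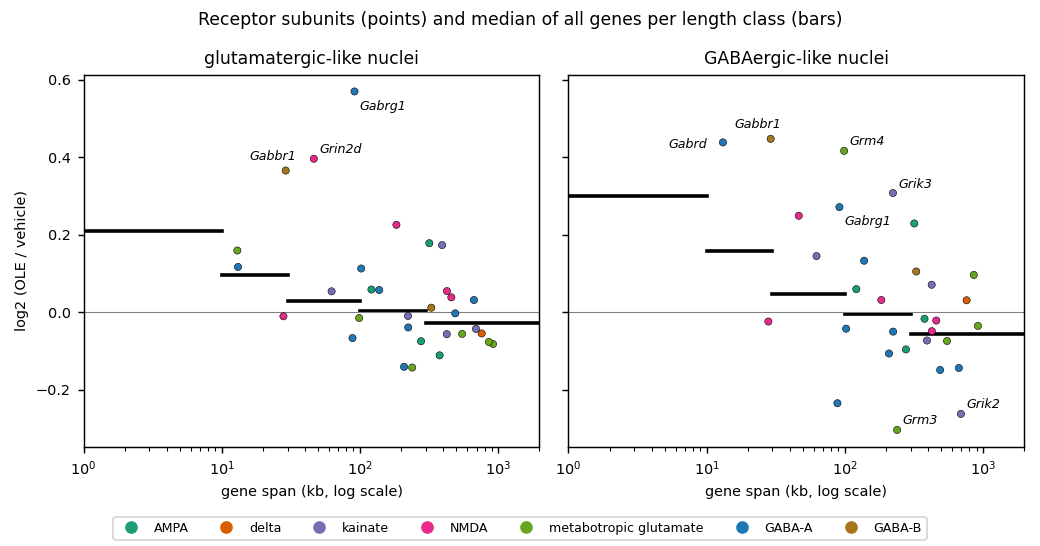
Log2 ratio of OLE to vehicle against gene span in kb (log scale) for measured receptor subunit genes (points, by family), with the median of all genes in each length class as a bar. In glutamatergic-like nuclei the bars go from 0.21 under 10 kb to -0.03 above 300 kb, and Gabrg1, Grin2d and Gabbr1 lie above the bars of their classes.

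Proteins that work with these receptors gave context from lists of known partners. These lists were not compared within length classes, although gene length moved with the ratio over all genes. Among genes named below as higher, Slc32a1 (4.98 kb), Gabarapl1 (9.19 kb) and Gabarapl2 (12.9 kb) are short. Shisal1 (67.9 kb) and Shisa6 (314 kb), also higher, are longer. On the low side Dlg2 spans 1973 kb and Kctd16 275 kb, while Insyn2a spans 56.5 kb. The part of gene length in these ratios was not tested. Auxiliary and clustering proteins of glutamate receptors had 6 of 19 measured genes higher and 0 lower in glutamatergic-like nuclei, with a median of 0.17 beside 0.07 for all genes, of which 21.1% were higher and 3.11% lower. The highest were Cacng4, a TARP that slows AMPA receptor gating (3.64 in vehicle and 6.83 in OLE, log2 ratio 0.91), and the neuronal pentraxins, which cluster AMPA receptors: Nptx1 (30.9 in vehicle and 54.4 in OLE, 0.82) and their receptor Nptxr (42.1 in vehicle and 67.4 in OLE, 0.68). Cacng4 rests on 155 and 270 UMIs here. It was at 709 and 734 in OPC-like and 18.8 and 26.1 in GABAergic-like nuclei. The part of RNA from those types in its ratio was not tested. The lowest were Olfm2 (-0.09), Neto1 (-0.04) and Cacng3 (-0.01). In GABAergic-like nuclei 6 of 17 were higher and 1 lower, with a median of 0.11 beside 0.08, and of all genes 25.4% were higher and 4.41% lower. Shisa6, which keeps AMPA receptors at synapses, was at 197 in vehicle and 284 in OLE (0.52), and Neto1, a partner of kainate receptors, at 431 in vehicle and 359 in OLE (-0.26). Cacng4 (0.48) and Olfm1 (0.41) were the next highest, and Shisa9 (-0.20) and Neto2 (-0.09) the next lowest. Of the 5 kainate subunits measured in those nuclei, Grik2 was lower like Neto1, but 3 were above 0.

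Scaffolds of excitatory synapses were close between libraries. In glutamatergic-like nuclei 1 of 20 was higher, beside 21.1% of all genes, and 0 were lower, beside 3.11%, with a median of 0.01. The higher one was Homer3, at 1.06 in vehicle and 1.95 in OLE and named after its value was seen. Camk2b (0.16), Camk2a (0.14) and Shank1 (0.10) had the highest ratios among genes of at least 200 UMIs, and Grip2 (-0.22), Dlg2 (-0.10) and Dlg1 (-0.09) the lowest. In GABAergic-like nuclei 0 of 19 were higher, beside 25.4% of all genes, and 1 was lower, beside 4.41%, with a median of -0.01. The lower one was Dlg1, at 169 in vehicle and 137 in OLE (-0.30). Dlg2 (-0.14) and Grip1 (-0.13) were the next lowest, and Shank1 (0.21), Shank3 (0.14) and Camk2a (0.13) the highest. Partners of GABA receptors had 6 of 17 genes higher (beside 21.1% of all genes) and 0 lower (beside 3.11%) in glutamatergic-like nuclei, with a median of 0.13. In GABAergic-like nuclei 7 of 16 were higher (beside 25.4%) and 2 lower (beside 4.41%), with a median of 0.09. Shisal1 was at 9.55 in vehicle and 14.4 in OLE in glutamatergic-like nuclei (0.59), and Insyn2a, a gephyrin partner, at 22.0 in vehicle and 14.1 in OLE in GABAergic-like nuclei (-0.65). Gabarapl2, of the family that carries GABA-A receptors inside the cell, was at 18.3 in vehicle and 25.9 in OLE in glutamatergic-like nuclei (0.51) and 18.0 in vehicle and 30.9 in OLE in GABAergic-like nuclei (0.78). Kctd12, an auxiliary GABA-B subunit, was at 2.84 in vehicle and 3.72 in OLE in glutamatergic-like nuclei (0.39), and Kctd16, another, at 1568 in vehicle and 1291 in OLE in GABAergic-like nuclei (-0.28). Gabarapl1 had ratios of 0.37 and 0.53 in the neuronal classes, and Clptm1 had 0.38 in GABAergic-like nuclei. On the low side were Plcl2 (-0.14), Kctd16 (-0.09) and Plcl1 (-0.07) in glutamatergic-like nuclei, and Plcl1 (-0.22) in GABAergic-like nuclei. Gphn, the gephyrin scaffold of inhibitory synapses, had ratios of -0.05 and -0.08.

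Enzymes and transporters of the transmitters had 5 of 18 genes higher in glutamatergic-like nuclei (beside 21.1% of all genes) and 8 of 17 in GABAergic-like nuclei (beside 25.4%). In each class 0 were lower, beside 3.11% and 4.41% of all genes, and the medians were 0.14 and 0.25. Slc32a1, which loads GABA into vesicles, was at 73.0 in vehicle and 138 in OLE in GABAergic-like nuclei (0.91). In glutamatergic-like nuclei Slc17a7, which loads glutamate, was at 159 in vehicle and 216 in OLE (0.44), and the GABAergic genes Gad2 (0.93) and Gad1 (0.51) were among the highest ratios. Among the lowest there were Gls2 (-0.04) and Glud1 (-0.04). In GABAergic-like nuclei Slc6a11 had 0.63, and among the lowest were Slc17a7 (-0.21) and Gls2 (-0.02). None of the 5 rho, pi and theta GABA receptor genes was measured in neurons, and Gabrr2 was measured in oligodendrocyte-like nuclei, at 39.0 in vehicle and 52.8 in OLE (0.44). For comparison, 3 of 14 neuronal reference genes were higher in glutamatergic-like nuclei and 4 of 14 in GABAergic-like nuclei, with 0 lower in each and medians of 0.07 and 0.03. Of 6 measured RNAs retained in the nucleus, 0 were higher or lower in either class, with medians of 0.05 and 0.06. Insyn1, Insyn2a and Shisal1 were matched by gene ID or older symbol, and no row was matched to Mir99ahg.

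On chromosome 5 the GABA-A subunit genes Gabra4 and Gabrb1 start head to head on opposite strands, and both were lower in OLE GABAergic-like nuclei, at -0.23 and -0.15. The other GABA-A genes of that region, Gabra2 and Gabrg1, were at 0.13 and 0.27 in GABAergic-like nuclei. Gabra4 and Gabrb1 were at -0.07 and -0.003 in glutamatergic-like nuclei and at -0.002 and -0.20 in oligodendrocyte-like nuclei. They lay on opposite sides of 0 in microglia-like (0.28 and -0.33) and astrocyte-like nuclei (0.28 and -0.06). Whether the pair shares its control was not tested.

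Promoter sequences from RefSeq, build GRCm38.p6, of 300 bases around the annotated start, were found for 27 of the 42 members. They were searched on both strands for GGGCGG, the letters of a GC box, and for TATAAA, the letters of a TATA box. GGGCGG was in 16 of 27 member promoters, beside 35.9% of all 27025 promoters, and TATAAA in 3 of 27, beside 14.2%. The median number of CpG pairs was 17 for members and 7 for all genes, and the median GC content was 63.7% and 52.7%. Gabbr1 is shown because its RNA was higher in OLE in both neuronal classes. Its window, chr17:37045716-37046015 on the plus strand, held GGGCGG or its reverse complement 3 times. Gabra4, chr5:71658259-71658558 on the minus strand, and Gabrb1, chr5:71657671-71657970 on the plus strand, are shown as the head-to-head pair with ratios below 0 in GABAergic-like nuclei. Gabra4 held the letters 2 times and Gabrb1 held them 0 times. Grin2c, chr11:115267194-115267493 on the minus strand, is shown as the member most restricted to a single cell type, and held them 3 times. Capitals mark GGGCGG or its reverse complement in each sequence, 5′ to 3′.
Gabbr1: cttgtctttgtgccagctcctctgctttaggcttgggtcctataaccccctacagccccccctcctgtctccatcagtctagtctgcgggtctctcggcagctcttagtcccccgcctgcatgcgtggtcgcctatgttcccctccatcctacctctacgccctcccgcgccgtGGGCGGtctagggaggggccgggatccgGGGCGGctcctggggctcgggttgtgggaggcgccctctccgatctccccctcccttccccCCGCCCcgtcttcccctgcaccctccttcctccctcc
Gabra4: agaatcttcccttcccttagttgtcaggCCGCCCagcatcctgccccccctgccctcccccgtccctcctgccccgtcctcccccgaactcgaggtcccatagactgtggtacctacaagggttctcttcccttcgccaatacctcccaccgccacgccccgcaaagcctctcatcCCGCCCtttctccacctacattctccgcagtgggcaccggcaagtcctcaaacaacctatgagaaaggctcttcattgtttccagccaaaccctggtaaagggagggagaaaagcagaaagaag
Gabrb1: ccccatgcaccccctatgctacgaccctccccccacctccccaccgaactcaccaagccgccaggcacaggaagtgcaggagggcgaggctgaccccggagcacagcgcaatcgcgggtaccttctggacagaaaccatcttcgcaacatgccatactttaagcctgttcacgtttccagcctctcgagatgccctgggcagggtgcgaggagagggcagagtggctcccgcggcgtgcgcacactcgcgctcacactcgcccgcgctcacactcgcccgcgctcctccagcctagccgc
Grin2c: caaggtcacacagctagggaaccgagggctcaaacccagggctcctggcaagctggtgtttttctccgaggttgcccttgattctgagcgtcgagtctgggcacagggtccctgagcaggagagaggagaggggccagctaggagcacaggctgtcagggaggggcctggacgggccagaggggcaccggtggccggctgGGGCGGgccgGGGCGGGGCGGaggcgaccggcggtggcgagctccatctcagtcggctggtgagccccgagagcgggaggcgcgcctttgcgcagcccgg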

How the data were processed

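The members and gene lists were chosen with earlier results of these data known. The authors deposited UMI counts per gene and nucleus from 10x Genomics 3′ v3 libraries, counted with Cell Ranger on an mm10 pre-mRNA reference (version 3.0.1 per the labels). Doublets were scored with Scrublet in scanpy 1.11.5, with 5% as the expected share. The nuclei with the highest scores were removed, 331 in vehicle and 289 in OLE, slightly under 5% of each library. Nuclei were clustered in Seurat 5.3.0 with sctransform 0.4.2 on R 4.3.3 (3000 variable genes without the members, 30 components, 20 neighbors, resolution 0.4), and GABAergic-like nuclei again (2000 genes, 15 components, resolution 0.3). A cluster was named when at least 3 markers of a type were at 4 times the lower quartile of the levels of all clusters and seen in 10% of its nuclei, and no other type came close, a rule set after clusters were seen. Levels and ratios were computed in Python 3.11.15 with numpy 2.4.6, scipy 1.17.1 and pandas 2.3.3. Gene spans came from GENCODE annotation of mm10. The code was tested on simulated data.

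Named with values were the 5 members with the highest level per kb in each type, members at least 4 times higher in 1 type than in any other, the 5 highest and 5 lowest ratios in each neuronal class and 2 in each glial type among members with at least 200 UMIs, the 3 highest and lowest of each partner list, and the 5 most variable members across clusters. Some of these genes are not reported here. Alternatives changed doublet removal, clustering, scaling, depth, minimum counts, the ratio limit and the nuclei used.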

Additional observations from a re-analysis of the deposited data

Results flagged for a closer look

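Grm3 was lower in OLE in GABAergic-like nuclei, at 63.9 and 51.8 UMIs per 1000000 in vehicle and OLE (log2 ratio -0.30), and higher in OPC-like nuclei, at 52.0 and 97.0 (0.90). It was noted because the 2 intervals lie on opposite sides of 0. The GABAergic-like value was 0.030 as a mean over nuclei, and within that class it was below 0 in Lamp5-like (-1.64) and Sst-like (-0.22) nuclei and above 0 in Pvalb-like (0.27) and Vip-like (0.22) nuclei. With 1 library per group the difference between the types was not tested, and the OPC-like value rests on 40 and 62 UMIs and was 0.57 as a mean over nuclei and 0.27 in thinned nuclei.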

How the results depend on the processing

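For the 32 named member ratios, 337 values were computed under alternatives: 291 stayed within the counting interval, 44 left it and 2 past the limit changed sign. The sign changes were Grm3 in GABAergic-like nuclei (0.030 as a mean over nuclei) and Gabrg1 in GABAergic-like nuclei (-0.71 with nuclei thinned to 1000 UMIs). In glutamatergic-like nuclei the number of members higher was 5 with no doublets removed (22.0% of all genes), 0 with thinned nuclei (16.02% of genes, and 8.32% lower; 33 measured; Gabrg1 at 0.40 and Grin2d at 0.41 then had too few UMIs to be called), 7 with the largest unnamed cluster counted in (25.8%), 5 with at least 1 UMI in each library and 1 with a log2 ratio of 0.5. The number lower was 1 with at least 1 UMI in each library. For that minimum and for a log2 ratio of 0.5, shares of all genes are not given in either neuronal class. Whether those counts are particular to the members was therefore not tested. The members' median was -0.056 with median-of-ratios scaling. In GABAergic-like nuclei the number higher was 3 with thinned nuclei (26 measured, 3 lower, beside 14.6% and 15.5% of genes) and 0 with a log2 ratio of 0.5. The number lower was 1 with no doublets removed (4.24% of genes), 0 as a mean over nuclei (6.22%) and 0 with a log2 ratio of 0.5. The length difference, the median under 10 kb minus that above 300 kb, was 0.32 in glutamatergic-like nuclei with the unnamed cluster counted in and 0.18 in GABAergic-like nuclei with thinned nuclei. In each case the cause was not tested.

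Gabbr1 ranged from 0.20 to 0.38 in glutamatergic-like and from 0.29 to 0.45 in GABAergic-like nuclei over the alternatives. Alternatives chosen after seeing the data were counting 2 further unnamed clusters as glutamatergic-like, equal cluster shares, glial levels on the clusters of each other clustering or beside the higher neuronal level, and leaving out nuclei with dentate genes, with GABAergic genes or with shared barcodes. No paired analysis was possible because each group has 1 library. A single pool per group means that treatment, pool and library preparation cannot be told apart. Members with few UMIs, such as Gabrg1, Grm4 and Gabrd, have wide intervals.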
